A study of Mus musculus with 2 samples.

Results

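The regions described here are CTCF peaks whose summit lies in a 3' untranslated region (3' UTR), the stretch of a messenger RNA between the stop codon and the poly(A) tail. They were taken from the optimal peak list on chromosomes 1 to 19. A summit had to lie in a UTR interval of the GENCODE M21 annotation downstream of the coding sequence of its protein-coding transcript, outside every coding interval, and more than 1 kb from every annotated transcript start. Of 55759 peaks on these chromosomes, 964 met the rule, which is 1.73%. The study measured CTCF binding by ChIP-seq in liver of newborn B6NCrl mice (postnatal day 0, no treatment, sex not collected), as 1 group with 2 replicates. The livers were pulverized and pooled over several dissections, and the labels number the samples as biological replicates 1 and 2. Since they share 1 biosample and 1 donor label, the spread between them may be technical only. The control experiment that the labels point to was not analysed here. No read counts are held in the lists, which leaves sequencing depth unknown, and peaks alone cannot check the tissue label against marker expression. With 1 group there is no second condition, and no test over samples was possible.

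CTCF is a DNA-binding protein with an array of zinc fingers that reads an asymmetric motif, and it halts the cohesin ring as this extrudes chromatin loops, so that the direction of the motif matters for looping. A 3' UTR is transcribed DNA, crossed by RNA polymerase on its way to the cleavage and polyadenylation site. Its RNA form holds binding sites for microRNAs and RNA-binding proteins, but a ChIP peak marks the DNA, not the RNA. Newborn liver holds hepatocytes and many blood-forming cells, and a peak in the pooled tissue cannot be assigned to either.

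The motifs under the strongest of these peaks are shown first, because the results below turn on how closely a 3' UTR matches the 14-base CTCF core. Each line gives the best core within 50 bp of the summit in capitals, with 8 bases of the GRCm38 (mm10) reference on each side in lower case, read 5' to 3' on the strand named. These 7 members are among the 12 with the highest signal and have a core with 1 or 2 mismatches. In Ptges2 the window held a further match with as few mismatches, and the one nearest the summit is shown.
Ptges2, core at chr2:32404856-32404869, plus strand: tcccacagCCACCAGGAGGCACtagagagc
Gna15, core at chr10:81502818-81502831, plus strand: acgcgcggCCACCAGGGGGAGGtatgtcct
Dnajc11, core at chr4:151981556-151981569, plus strand: gtgagtggTCAGCAGGTGGCGCtgctgccc
Irf2bp1, core at chr7:19006681-19006694, plus strand: cgttgtgaCCACTAGGTGGTGCcttttgtc
Slc4a3, core at chr1:75559733-75559746, minus strand: aatcggatCCGCCAGGTGGCAGccttcccc
Slc16a5, core at chr11:115474121-115474134, minus strand: tcctttgaCCATGAGGGGGCACtcgtgaca
Tns4, core at chr11:99066192-99066205, minus strand: ccttacaaCCACAAGGGGGAAGcagagagt
The next 9 are the strongest members with a perfect core, other than 1 in Pard6g that is not printed. The first 3 of them, Ptp4a3, Frmd8 and Dand5, are also among the 12 strongest.
Ptp4a3, core at chr15:73757349-73757362, minus strand: agggatggCCACCAGAGGGCGCcatggagg
Frmd8, core at chr19:5850362-5850375, minus strand: agctgtgaCCAGCAGGGGGCAGctgagccc
Dand5, core at chr8:84815729-84815742, minus strand: gcttttagCCACTAGGTGGCACcgcgtccc
Mroh5, core at chr15:73787304-73787317, minus strand: catggctaCCACCAGAGGGCGCatgagatt
Cryzl1, core at chr16:91694882-91694895, plus strand: tcagccgtCCACTAGAGGGCAGccatgcag
Tnfrsf1b, core at chr4:145214579-145214592, plus strand: aggacgggCCACCAGGGGGCAGacgtgttc
Rps19bp1, core at chr15:80260877-80260890, minus strand: acgagcgaCCAGCAGGTGGCAGtgcaaaac
Rab23, core at chr1:33739539-33739552, minus strand: gtaattctCCAGCAGAGGGCGCcatctaca
Grm2, core at chr9:106643359-106643372, minus strand: ggagctcaCCAGTAGAGGGCGCcagggctc
The other 2 of the 12 strongest members had no core with at most 2 mismatches within 50 bp. Their best match had 4 mismatches in Rdh13 and 3 in Coa5.
Rdh13, core at chr7:4427433-4427446, plus strand: aaggatgaTGAGGACATGGCAGccaacatc
Coa5, core at chr1:37419644-37419657, plus strand: tacacagaGCACAAGGGTGCAGtacctcct

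The strongest member lay in the 3' UTR of Ptges2, which encodes a prostaglandin E synthase. Its deposited signal was 598.0 in the optimal list, 310.5 in replicate 1 and 288.3 in replicate 2, and it ranked 27 of all 57220 peaks in the list. The signal column has no stated scale and is compared here within a list only. The summit lay 2555 bases from the stop codon and 889 bases from the transcript end. The second was in Rdh13, a retinol dehydrogenase, with a signal of 544.5 (268.5 and 277.0 in replicates 1 and 2), only 150 bases past the stop codon. Gna15, a G protein alpha subunit of blood cells, followed with 541.1 (285.8 and 257.4), and Dnajc11, a mitochondrial co-chaperone, with 540.3 (272.2 and 268.9). The other 8 lay in Irf2bp1 (523.9), Ptp4a3 (516.0), Slc4a3 (516.0), Frmd8 (484.4), Coa5 (466.0), Slc16a5 (462.8), Dand5 (460.0) and Tns4 (446.3). These genes encode a corepressor, a tyrosine phosphatase, an anion exchanger, an iRhom-binding protein, a cytochrome oxidase assembly factor, a monocarboxylate transporter, a Nodal antagonist and a tensin of focal adhesions. The 12 were picked by signal in a list derived from both replicates and their pool, which favours high ranks in each replicate. All 12 were among the 1000 highest signals of both replicate lists, the lowest rank being 882 for Tns4 in replicate 1. Past these, the strongest perfect cores were in Pard6g, a cell polarity protein, at 446.1 (221.6 and 225.3), Mroh5 at 444.8 (224.0 and 221.1) and Cryzl1 at 426.3 (214.9 and 210.8). Tnfrsf1b, a receptor for tumour necrosis factor, had 415.5 (214.4 and 201.5) and Rps19bp1 had 414.1 (215.8 and 202.0). Rab23, a GTPase that restrains hedgehog signalling, had 392.1 (213.4 and 179.0), and Grm2, a glutamate receptor, 391.4 (200.2 and 192.9). These 7 lay within a narrow band, from 391.4 to 446.1.

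Signal among the 964 members ran from 6.10 to 598.0, with quartiles at 36.4, 99.9 and 245.4. The median of 99.9 was above that of peaks in coding exons (61.2, 1008 peaks) and introns (65.7, 20502 peaks), and below that of peaks within 5 kb downstream of a gene end (124.1, 2803 peaks), all of these also more than 1 kb from a start. In the replicates taken alone, the 3' UTR median was 1.66 and 1.53 times that of coding exons and 1.55 and 1.47 times that of introns. Against the downstream peaks it was 0.831 and 0.771 times. Each of these 3 ratios lay on the same side of 1 in both replicates. The members were spread unevenly over the list: with all autosomal peaks cut into 5 bins of equal number by signal, they made up 2.53% of the strongest bin (exact binomial 95% interval 2.25 to 2.84%) and 1.39% of the weakest (1.18 to 1.62%). In all, 558 members (57.9%) lay above the median signal of the list.

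**Figure D1:**
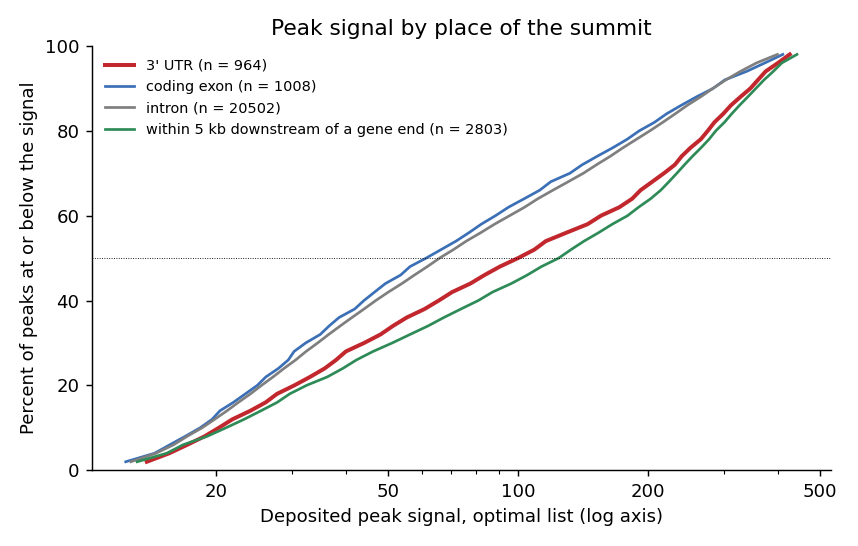
Deposited signal in the optimal list (log axis) against the percent of peaks at or below it, drawn from the 2nd to the 98th percentile, for summits in 3' UTRs, coding exons, introns and within 5 kb downstream of gene ends. The 3' UTR curve crosses the dotted median line at 99.9, between introns (65.7) and downstream peaks (124.1).

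Both replicate lists held a summit within 100 bp for 945 of 964 members (98.0%, interval 96.9 to 98.8%), where the share was 97.1% over all autosomal peaks. A further 10 members were matched in replicate 1 only and 9 in replicate 2 only. The match used the full replicate lists of 300000 peaks. Since the optimal list was itself derived from both replicates and their pool, that selection favours a high share. The median gap between the summits of the replicates was 8 bp. Signals of the 945 members gave a Spearman's rho of 0.975 between the replicates, which is a description across peaks of the same 2 libraries. The SD of the log2 ratio of the replicates was 0.45. Weak members varied most: among the 241 members of lowest signal the median absolute log2 ratio was 0.51, against 0.08 among the 241 of highest signal. In the conservative list 867 members (89.9%) were matched within 100 bp, beside 87.8% of all autosomal peaks.

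**Figure D2:**
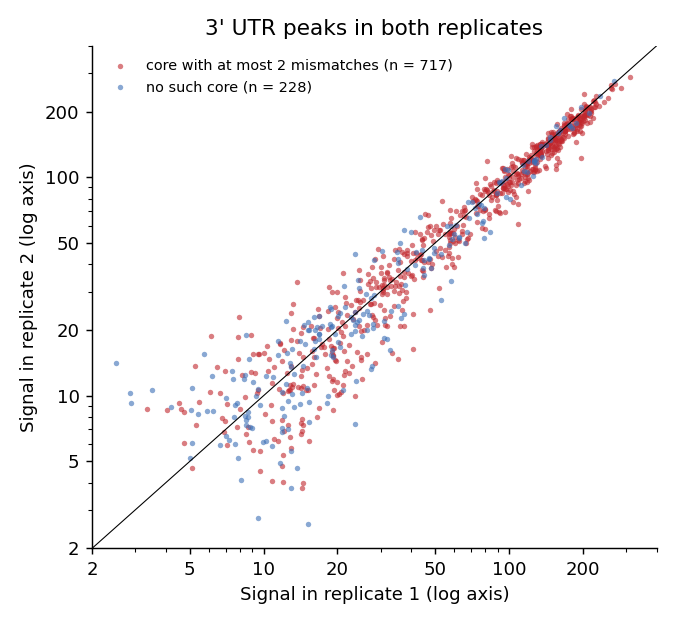
Signal in replicate 2 against signal in replicate 1 for the 945 members matched in both (log axes, line at equal values), coloured by whether a core with at most 2 mismatches lay within 50 bp. Points close up on the line as signal rises, with a median absolute log2 ratio of 0.51 among the 241 weakest members and 0.08 among the 241 strongest.

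A core with at most 2 mismatches lay within 50 bp of the summit in 727 of 964 members (75.4%, interval 72.6 to 78.1%), beside 71.2% of all autosomal peaks. The latter include 11526 peaks within 1 kb of a transcript start, which the rule leaves out and of which 52.4% had a core. In windows moved by 1 kb from the member summits the share was 3.22%. The replicates alone gave 75.1% and 73.3%. The share was lower in coding exons, at 66.2% (67.2% and 67.5% in the replicates), near the same in introns, at 74.9%, and higher downstream of genes, at 78.8%. Between 3' UTR and coding peaks the difference was 6.87 ± 1.42 percentage points (SD, n = 2 replicates). Against introns, whose replicates gave 74.7% and 74.4%, the 3' UTR share differed by less than its own SD between replicates (1.22 points). The core sat close to the summit: among 701 members with 1 best core, its centre was within 10 bp of the summit in 524 (74.8%).

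Signal was lower with each further mismatch from 0 to 4. For the 142 members with a perfect core the median was 251.5 (131.8 and 120.9 in the replicates). It was 134.5 for 287 members with 1 mismatch, 72.6 for 298 with 2, 50.2 for 159 with 3 and 33.8 for 67 with 4. The 10 members with 5 mismatches had a median of 44.6, above that for 4. A perfect core was found in 14.7% of members (12.6 to 17.1%), against 6.65% of coding exon peaks, 9.31% of intron peaks and 13.1% of downstream peaks. At 0 mismatches the medians of the classes lay close, with 235.9 in coding exons, 228.0 in introns and 269.7 downstream, and at 1 mismatch the 3' UTR median of 134.5 was again above introns (107.1) and below downstream peaks (176.8). In 4 sets of 241 members, from strongest to weakest, a core with at most 2 mismatches was present in 91.3, 83.8, 69.3 and 57.3%.

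Strong members without a good core stood out from this order. The peak in Rdh13 had a best match of 4 mismatches within 50 bp and a core of 2 mismatches within 100 bp, and it was 434 bp wide where the median member was 284 bp. In Unc119b, the signal was 407.7 (197.8 and 210.1) with 4 mismatches, 27 bases past the stop codon. Clec9a, a receptor of dendritic cells, had 354.5 (168.0 and 186.5) with 5 mismatches. Widening the window to 100 bp changed neither of these last counts of mismatches.

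Turning the question round, all cores in 3' UTR sequence were scanned to see how many had a peak summit within 50 bp. Of 150 perfect cores in 28.98 Mb, 143 were under a peak (95.3%, interval 90.6 to 98.1%; 93.3% and 95.3% in the replicates). In coding exons 70 of 85 were (82.4%, 72.6 to 89.8%; 80.0% and 83.5%), in introns 88.2% of 2178 (86.8 to 89.6%), and downstream of genes 92.0% of 400 (88.9 to 94.5%). In 3' UTRs 38.5% of 780 cores with 1 mismatch were occupied (35.0 to 42.0%), against 27.5% in coding exons (24.7 to 30.4%), 33.1% in introns and 44.4% downstream. At 2 mismatches the share was 5.37% of 6627 in 3' UTRs. At 0 and 1 mismatches the 3' UTR share lay above coding exons and introns in both replicates.

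**Figure D3:**
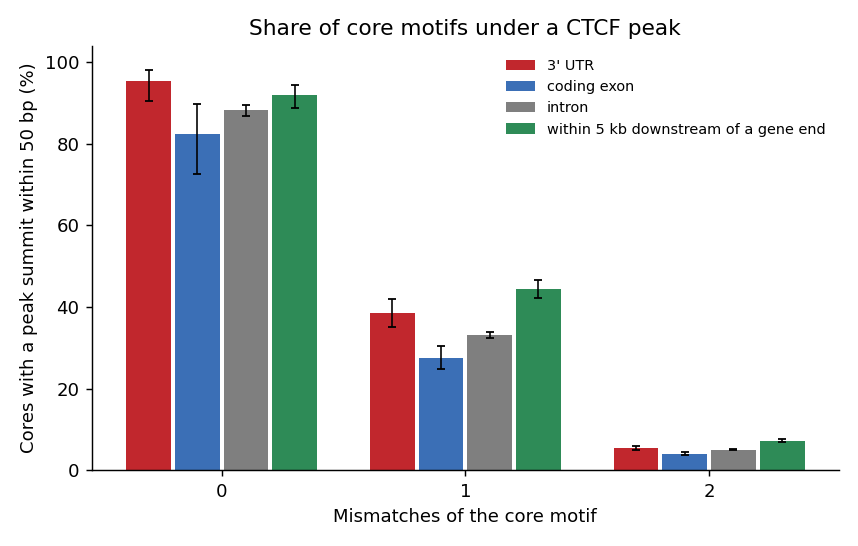
Percent of all core motifs with a peak summit within 50 bp of the core centre, by mismatches (0, 1 or 2) and place, with exact 95% binomial intervals over cores. In 3' UTRs the bars stand at 95.3, 38.5 and 5.37%, at each step above coding exons.

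Cores can hold a CpG at positions 12 and 13, counted from the 5' end. Cores with 1 mismatch in 3' UTRs were occupied more often with this CpG than without it: 97 of 142 (68.3%, 60.0 to 75.9%) against 203 of 638 (31.8%, 28.2 to 35.6%). The replicates gave 71.8% and 69.0% with the CpG and 31.3% and 31.2% without. The same order was seen at 2 mismatches (12.2% and 4.61%), while at 0 mismatches the intervals overlapped (44 of 45 and 99 of 105). Introns showed the same order, with 58.6% and 28.5% at 1 mismatch. A core with this CpG cannot have a mismatch at position 12 or 13, so the groups also differed in where mismatches could lie. The parts of the CpG and of the place of the mismatch were not tested, and methylation was not measured.

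The strand of the core was compared with that of the gene in 691 members with 1 best core and UTRs of 1 strand. It matched the gene strand in 329 (47.6%, interval 43.8 to 51.4%), and in 48.2% in each replicate. All cores in 3' UTR sequence, bound or not, matched in 45.1% (44.0 to 46.3%), so the peaks showed no departure beyond counting error from an even split or from the sequence they lay in. Signal did differ by strand: the median was 159.7 for the 329 cores on the gene strand and 110.8 for the 362 on the other, with 80.1 against 58.0 in replicate 1 and 80.3 against 56.8 in replicate 2. Perfect cores made up 17.6% on the gene strand and 22.7% on the other, and repeat-masked summits 10.9% and 11.9%. Their part in the difference in signal was not tested. In median signal, coding exons had the same order by strand (105.2 against 76.6), and introns the opposite one (82.7 against 92.4). Peaks are not replicates, so no interval is given for these differences.

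The summit lay in repeat-masked sequence in 111 members (11.5%, interval 9.57 to 13.7%; 12.7% and 10.9% in the replicates), while 19.3% of 3' UTR sequence is masked in the reference. Peaks downstream of genes showed the same order, with 25.2% masked where 34.6% of the sequence is. In introns (28.5% and 29.0%) and coding exons (4.17% and 4.75%) the shares lay closer. Masked members were weaker, with a median signal of 58.5 against 111.3 for the 853 others, although 80.2% of them had a core against 74.8%.

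A single version of the core recurred in the masked members. Of the 727 members with a core, 45 began with the 12 bases CCAGAAGAGGGC (6.19%, interval 4.55 to 8.20%), and 43 of these summits were masked. The share was 19.2% of intron peaks with a core (18.6 to 19.8%), 16.5% downstream of genes and 1.199% in coding exons, with 6.54% and 5.76% in 3' UTRs in the replicates. Their median signal was 58.3, beside 137.8 for all members with a core. This version has A at position 5, which departs from the core, so each copy holds at least 1 mismatch. Members with 1 and 2 mismatches of any kind had medians of 134.5 and 72.6. The 3 named members that follow carry it, with the core in capitals.
Pfdn2, core at chr1:171358625-171358638, minus strand: cctttgtgCCAGAAGAGGGCATcagacccc
Hsd17b7, core at chr1:169950813-169950826, plus strand: caccgaggCCAGAAGAGGGCATcagatccc
BC030870, core at chr8:65086050-65086063, plus strand: gctgtatgCCAGAAGAGGGCATcagatccc
They share most of the bases after the core and differ in those before it, and their signals were far apart. The summit in UTRs of Pfdn2 and Klhdc9 had 246.3 (125.3 and 120.3 in the replicates) and the one in Hsd17b7, an enzyme of cholesterol synthesis, had 70.3 (28.5 and 42.3). BC030870 had 6.61, with a match in replicate 1 only (5.35). Where it occurs, this version was bound about as often in 3' UTRs as in introns and downstream of genes: 46 of 331 copies had a summit within 50 bp (13.9%, 10.4 to 18.1%), against 14.05% in introns and 14.6% downstream. Coding exons had few copies, of which 8 of 26 were bound (30.8%, 14.3 to 51.8%). The copies themselves were rarer in 3' UTRs, at 11.4 per Mb against 26.1 in introns and 43.2 downstream, and 328 of the 331 were masked. The B2 family of short interspersed elements is known to have spread CTCF motifs through the mouse genome, but the masking used here does not name families. By contrast, the 12 members sharing the perfect core of Frmd8 and the 10 sharing that of Tnfrsf1b were all outside masked sequence, with median signals of 265.8 and 307.5. The perfect cores shared next most often, by 10, 8 and 7 members, had 1, 2 and 1 masked, with median signals of 224.7, 261.2 and 186.0.

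The members lay at 33.3 per Mb of 3' UTR sequence that a summit could occupy, 1.43 times the 23.3 per Mb of all autosomal sequence, and the replicates gave 1.42 and 1.44. Coding exons held 42.0 per Mb, introns 24.8 and the 5 kb downstream of genes 46.2. Along the UTR the density changed towards the end. Over the longest annotated UTR of each gene cut in 5 equal stretches from the stop codon, it was 33.9, 36.1, 33.9, 37.6 and 26.6 members per Mb. UTRs with the same transcript end were counted once. The last stretch was the lowest in both replicates, with 26.6 and 28.9. It also held the fewest cores, 223.3 per Mb against 259.0 to 301.3 in the others, and the lowest GC content, 40.1%. The occupied share of its cores was 9.57%, between 8.75% in the first stretch and 12.4% in the fourth.

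Around the annotated transcript end a drop was followed by a step up. Peaks of any class more than 1 kb from a start lay at 42.2 per Mb between 1000 and 250 bp before the end. That stretch takes in coding exons and introns of genes with shorter UTRs, so this drop need not be the one along the UTR. In the last 250 bp the density was 32.1 per Mb (34.2 and 35.1 in the replicates), and in the first 500 bp after the end it was 55.4 per Mb (53.6 and 53.7). From 500 to 3000 bp after the end it was 50.6 per Mb. Cores numbered 322.0, 259.2, 312.1 and 318.7 per Mb in these 4 stretches, and 10.7, 10.5, 14.8 and 13.4% of them were occupied. The lower peak density in the last 250 bp came with fewer cores and a like occupied share, and the higher density past the end with a higher occupied share. Their part in the densities was not tested. The AATAAA hexamer, the main signal for cleavage and polyadenylation, lay on the gene strand within 150 bp of 152 summits (15.8%, interval 13.5 to 18.2%). It was present in 18.7% of 301-base tiles of 3' UTR sequence, outside that interval, but the windows were unlike. Tiles were cut from the stop codon along the spliced UTR, without its incomplete last tile. Windows around summits were genomic and could run past the UTR. GC content was 53.6% near summits and 42.7% in 3' UTR sequence. The part of these in the difference was not tested.

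**Figure D4:**
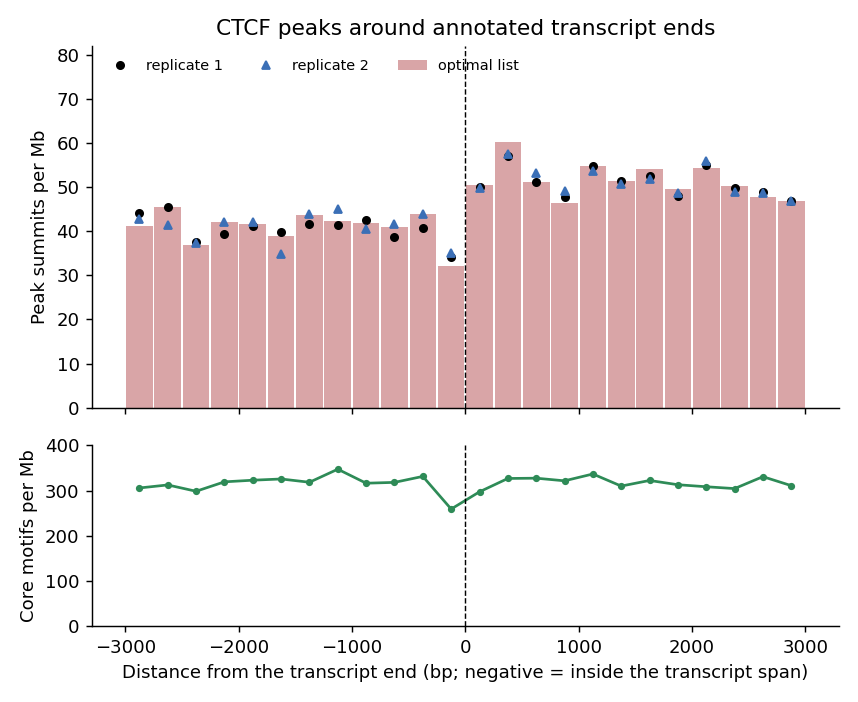
Top, peak summits per Mb in 250 bp bins around the end of the transcript with the longest 3' UTR of each gene, leaving out sequence within 1 kb of starts (bars, optimal list; circles and triangles, replicates); bottom, cores with at most 2 mismatches per Mb. The bar before the end is the lowest of the optimal list, at 32.1 per Mb, and the bars after it stand above 46 per Mb; replicate 2 was as low, at 34.8, in 1 bin further inside (1750 to 1500 bp before the end).

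Most members were plain 3' UTR positions. For each summit the coding transcripts of 1 gene were compared, the gene with the longest UTR there. In 853 (88.5%) the summit was 3' UTR in every coding transcript of that gene over it. In 111 another coding transcript of that gene had an intron or other UTR there. Coding transcripts of other genes were not counted. Only 48 lay in a UTR split by an intron. In 113 a further gene of any type lay over the summit without holding it in its own 3' UTR. The summit was inside 1 gene only in 840 members. The median summit was 890 bases from the stop codon and 957 from the end. In Pik3cd, the catalytic subunit of a leukocyte lipid kinase, the summit was 4 bases past the stop codon over a perfect core, with a signal of 245.2 (117.5 and 127.4). In Slbp, whose product binds the stem-loop at the end of histone messages, it was 13 bases past (183.8, or 108.8 and 75.4), and in Tmem144 21 bases past (252.8). At the other side, the summits in T2, Trmt12 and Mmp28 were 18, 30 and 35 bases from the transcript end, with signals of 171.8, 173.8 and 231.3.

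UTRs of genes on both strands overlapped at 13 summits, whose median signal was 72.0. The strongest of them lay between Rhof, a small GTPase, and Tmem120b, with 367.4 (171.9 and 195.9) over a perfect core. The next was shared by Eef2kmt and Alg1, with 281.9 (140.6 and 141.7), also over a perfect core. The next was that of Pfdn2 and Klhdc9 given above.

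Of 18923 autosomal protein-coding genes with 3' UTR sequence under the rule, 945 had a member (4.99%, interval 4.69 to 5.31%). One peak was found in 896 genes, 2 in 46 and 3 in 3. Genes that share a UTR each count: 14 members lay in UTRs of several genes, and 1 of these, with a signal of 105.5, in the UTR shared by 21 protocadherin gamma genes. Without those 21 the share was 4.89%. Longer UTRs held a peak more often. The share was 1.22% for genes with a longest UTR under 500 bases, 2.96% from 500 to 1000, 5.44% from 1000 to 2000, 8.88% from 2000 to 4000 and 12.8% above. Per length the order was the reverse, with 53.7, 42.3, 37.3, 33.7 and 24.997 peaks per Mb, counting UTRs with a shared end once. The median UTR over a member was 2277 bases long, against 948 for the longest UTR of all genes.

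**Figure D5:**
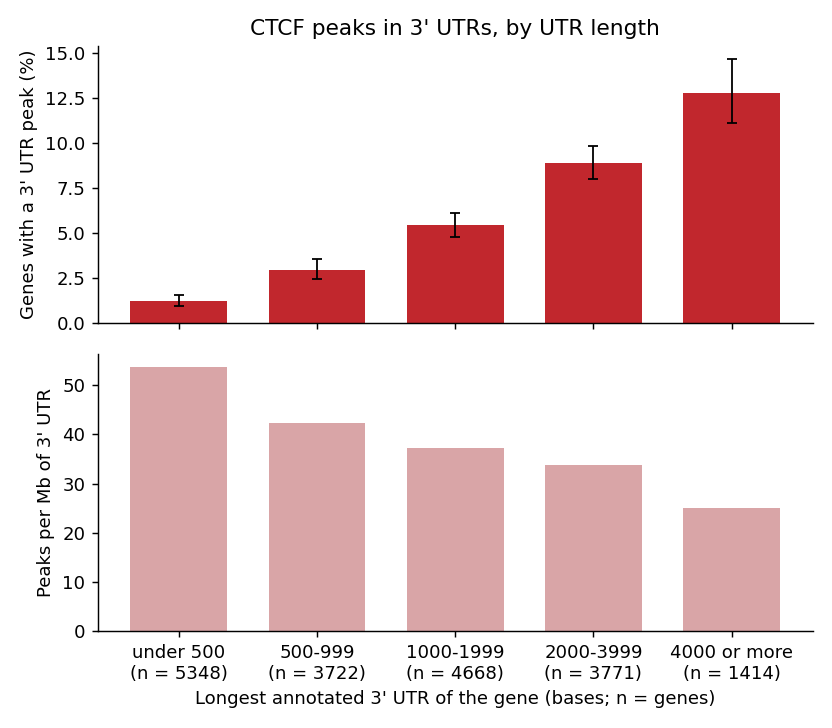
Top, percent of protein-coding genes with a peak in the 3' UTR by the length of the longest annotated UTR, with exact 95% binomial intervals over genes; bottom, peaks per Mb of that UTR sequence. The share rises from 1.22 to 12.8% while the density falls from 53.7 to 24.997 per Mb.

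The 3 genes with 3 peaks were Upk3b, a uroplakin, Gfod1 and Aak1, a kinase of clathrin-coated vesicles. In Upk3b the signals were 246.0, 83.5 and 82.3, within a UTR of 2396 bases. Gfod1 had 220.8, 116.0 and 72.6. In Aak1 the strongest, 313.9 (151.1 and 161.7), lay 279 bases from the end of a UTR of 15928 bases over a perfect core, and the others had 65.5 and 15.6. In each of the 3 genes 1 peak stood well above the others. Among genes with 2 peaks, Ephb2, a receptor for ephrins, had 350.4 and 248.2, and Dnajc11 had 540.3 and 46.7, all 4 over cores with 1 mismatch.

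Lists of genes that mark the cells of the liver were set beside the share of 4.99% over all genes, which the exact interval of every list contains. None of 28 hepatocyte genes did, which allows a share of up to 10.7%, and none of 19 hepatocyte transcription factor genes, which allows up to 15.8%. The median longest UTR of those 28 was 329 bases. The cholangiocyte (11 genes), endothelial (12) and myeloid (14) lists were also empty, while 1 of 14 hepatic stellate genes had a member, Acta2 (smooth muscle actin), with 149.6 (74.7 and 74.3). Among 17 erythroid genes there were 2, Sptb (red cell spectrin) at 354.8 (185.2 and 167.9) and Epb41 (a protein of the red cell skeleton) at 12.7 (4.54 and 9.29). Cd3g, a T cell receptor subunit, was the only 1 of 11 lymphoid genes, with 50.9 (22.7 and 26.0) over a perfect core.

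Genes that act on 3' UTRs were looked at in the same way. Of 27 genes for 3' UTR-binding proteins 4 had a member (14.8%, interval 4.19 to 33.7%, which holds the share over all genes). They were Zfp36l1, which binds AU-rich elements and speeds decay, at 268.0 (132.7 and 134.5), Upf1, the helicase of nonsense-mediated decay, at 184.7 (89.1 and 97.4), Igf2bp1 at 71.4 and Celf1 at 24.6. The median longest UTR in this list was 2778 bases. Of 18 cleavage and polyadenylation genes only Pcf11, a termination factor, had one, at 17.1 (8.39 and 8.03), and of 13 microRNA pathway genes none did. None of 19 genes of CTCF, cohesin and their partners had one, and none of 28 imprinted genes, which allows up to 10.7%. Of 25 genes of cholesterol and bile acid metabolism 2 had a member, Hsd17b7 (70.3) and Hmgcs1, which makes HMG-CoA, at 29.2 (11.4 and 17.7). Ccnd1, encoding cyclin D1, was the 1 of 20 cell cycle genes, with 98.9 (46.2 and 56.3). Rpl22, a ribosomal protein, had 360.3 (185.5 and 174.1), and Rpl7l1, which the symbol pattern placed in the same list of 44, had 59.2. Of 378 genes with Zfp symbols 13 did (3.44%, 1.84 to 5.81%), Zfp444 being the strongest at 302.6 (152.6 and 151.5).

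At the weak end stood Actn1 (10.6, with 4.99 and 5.21 in the replicates), BC030870 (6.61) and Kmt5b (6.10, matched in replicate 2 only, at 5.77). These 3 were absent from the conservative list. The rule left out 154 summits in 3' UTRs within 1 kb of a start, with a median signal of 79.0, and 29 in a coding interval, with 85.8. The 35 summits between 800 bp and 1 kb from a start had a median of 62.6 and the 30 between 1 and 1.2 kb one of 107.7.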

How the data were processed

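CTCF ChIP-seq peak lists of newborn mouse liver were analysed: the optimal and conservative lists of the irreproducible discovery rate (IDR) procedure and 1 list of each replicate. The lists are in narrowPeak format on mm10, per the labels and the text deposited with them. Which aligner, peak caller and thresholds were used is stated in none of the sources used here. The signal is the value the authors deposited per peak, and its scale is not stated. The summit is the start plus the offset the authors deposited in the last column, an other unit counted in bp. No library depth is known, so no interval is given on a signal.

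From each replicate list of 300000 peaks the 57220 strongest, equal in number to the optimal list, entered the replicate shares and the medians of peak classes. A member's own replicate signal is that of the nearest summit within 100 bp in the full list. Replicate medians by number of mismatches use these matched signals of peaks picked from the optimal list. Coordinates were set against GRCm38 and GENCODE M21. The 14-base CTCF core was sought on both strands, lying wholly inside the 50 bp to either side of a summit and allowing 2 mismatches. A core counted as occupied when an optimal summit lay within 50 bp of its centre. For positions along the UTR and densities by UTR length, 50 genes that end at the same base as another were left out, a correction made after the data were seen. Lower-case reference bases were taken as repeat-masked. Shares have exact 95% Clopper-Pearson intervals, which cover only the counting error over peaks, cores or genes; for a share of 0 the limit is 3 counts of the total. The search and the rule were tested on simulated data.

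The members, the gene lists and the rules were chosen with earlier results of these data known. Named genes are the 12 strongest members, the 10 strongest with a perfect core, the 5 genes with most peaks, the 2 strongest of each list, the 3 weakest, the 3 nearest to a stop codon and to an end among the stronger members, and the 3 strongest over both strands or with more than 3 mismatches. Igf2bp1 and Celf1 fall outside the rule and were named after their values were seen; so was the recurring 12-base core. Alternatives were the conservative list, peaks above the median signal, each replicate alone, 2 kb from starts, basic transcripts, summits in 1 gene, and other mismatches and windows. Python 3.11.15, NumPy 2.4.6, SciPy 1.17.1, pysam 0.24.0 and matplotlib 3.10.9 were used.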

Additional observations from a re-analysis of the deposited data

How the results depend on the processing

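Of 48 alternatives, 23 moved a value by less than the replicate spread (for counts, by less than 1.5 times) and 25 by more. Peaks above the median signal of the list gave 558 members, a density ratio of 1.65, a core in 85.1%, 50.9% of cores on the gene strand, 2.99% of genes with a member and 7.71% of summits masked. Counting only starts more than 2 kb away gave a density ratio of 1.396 and 47.9% on the gene strand. The conservative list gave 47.7% on the gene strand and 4.76% of genes, and basic transcripts 48.0% and 4.95%. Summits in 1 gene only gave 47.3% on the gene strand. At most 1 mismatch gave a core in 44.5% of members, with 48.2% on the gene strand, and at most 3 gave 91.9% and 47.7%. A window of 30 bp gave 71.4% and 48.3%, and one of 100 bp 77.1% and 47.9%. With 1 replicate left out, the values ran from 958 to 971 members, 1.42 to 1.44 for the density ratio, 73.3 to 75.1% with a core, 48.2 to 48.2% on the gene strand, 4.96 to 4.99% of genes and 10.9 to 12.7% masked. The replicates differed by so little in the strand share (SD 0.039) that every alternative moved it by more; the cause was not tested. No paired analysis was possible because there is 1 group. The unknown depth limits what can be said of absent peaks: a core without a peak is not shown to be unbound.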

Other observations

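Members lay between coding exon and intron peaks in the share of mismatches at core positions 3 and 5, and in the share of G at position 13. Positions are counted from 1 at the 5' end of the core, over peaks with 1 best core of at most 2 mismatches. Among 701 members, position 3 was a mismatch in 17.1%, against 33.9% of 641 coding exon peaks and 12.7% of 14824 intron peaks. Position 5 was a mismatch in 23.5% of members, with A there in 20.1%, in 14.7% of coding exon peaks, with A in 9.98%, and in 37.2% of intron peaks, with A in 33.6%. The recurring 12-base core given above has this A. It began 6.19% of the cores of members, 1.199% in coding exons and 19.2% in introns, and its part in the order was not tested. Position 13 was G, the base that can complete a CpG, in 45.2% of members, 60.5% of coding exon peaks and 38.9% of intron peaks. A also fits the core at position 13, where mismatches made up 4.99, 5.77 and 4.85%. The most constant position was 7, a G in 99.4% of members.

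The next summit of any class lay at a median of 5287 bp from a member (5216 and 5103 bp in the replicates), beside 5344 bp from a coding exon peak (5355 and 5510 bp), 7413 bp from an intron peak (7510 and 7497 bp) and 4658 bp from a peak downstream of a gene. A further summit lay within 1 kb of 88 members (9.13%, interval 7.39 to 11.1%), beside 7.56% of intron peaks (7.20 to 7.93%) and 11.8% of coding exon peaks (9.88 to 13.96%). The sequence within 50 bp of member summits had a GC content of 53.6%, where 3' UTR sequence as a whole had 42.7%. Members with a core had 53.8% and those without 53.1%.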
